A study of Mus musculus with 2 samples.

Results

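Blood and lymphatic vessels of the skin are held and remodelled by a small set of secreted factors and the receptor tyrosine kinases they bind. The 10 genes described here are the VEGF ligands Vegfa, Pgf, Vegfc and Vegfd, their receptors Flt1, Kdr and Flt4 (VEGF receptors 1, 2 and 3), the angiopoietins Angpt1 and Angpt2, and the angiopoietin receptor Tek. They were chosen by symbol from the 33904 genes of the deposited matrices, and each symbol named 1 row. VEGF-A signals mainly through KDR and drives the growth and leakiness of blood vessels, and FLT1 binds VEGF-A and PlGF (the product of Pgf) tightly and can act as a decoy. VEGF-C and VEGF-D act through FLT4, the receptor by which lymphatic vessels grow. Angiopoietin-1, typically made by cells around the vessel, activates TEK and steadies the endothelium, whereas angiopoietin-2 can block that signal in blood vessels.

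Dorsal skin of female C57BL/6J mice was profiled by 10x 3′ single-cell RNA-seq in 1 Ctrl and 1 AD library. All were 7 weeks old, and their back hair was taken off with depilatory cream a day ahead of the first dose. The AD mice received MC903 (calcipotriol), a vitamin D analogue that elicits dermatitis resembling AD, in ethanol at 4.5 nmol a day, Ctrl mice received the ethanol alone, and skin was taken on day 10. The number of mice in a library was not stated in the sources used here. With 1 library per condition there was no test between conditions, and no p-value was computed. All ranges in parentheses are exact 95% intervals (Poisson for sums of UMIs, Clopper-Pearson for shares, conditional for ratios) and cover counting error only, not differences between mice, and UMIs of 1 cell are not independent. A UMI is 1 counted transcript molecule. Levels are CPM: within each class and library the UMIs were added up, and each gene was scaled to the class total.

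The filter stated in the methods, 200 to 6000 genes and at most 10% mitochondrial UMIs, kept 11399 Ctrl cells (median 7813 UMIs) and 8179 AD cells (median 6330 UMIs), and 35 barcodes occurred in both libraries. Cells were placed in classes by counts of marker genes, none of them among the 10 genes. The classes used most were blood endothelium (69 cells in Ctrl and 81 in AD), lymphatic endothelium (256 and 261), mural cells, the pericytes and smooth muscle that wrap vessels (188 and 126), fibroblasts (5574 and 4524), keratinocytes (1819 and 365), macrophages (466 and 195) and T cells (578 and 385). Cells that passed more than 1 gate (651 and 188) or none (1387 and 1675) were left out of all classes. The 6 lymphatic markers, which the gates themselves used, summed to 24317 CPM in Ctrl against 16343 CPM in AD in lymphatic endothelium, and to 70.7 and 23.0 CPM in blood endothelium. Endothelial cells of any kind were 355 of the kept Ctrl cells and 357 of the kept AD cells.

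**Figure D1:**
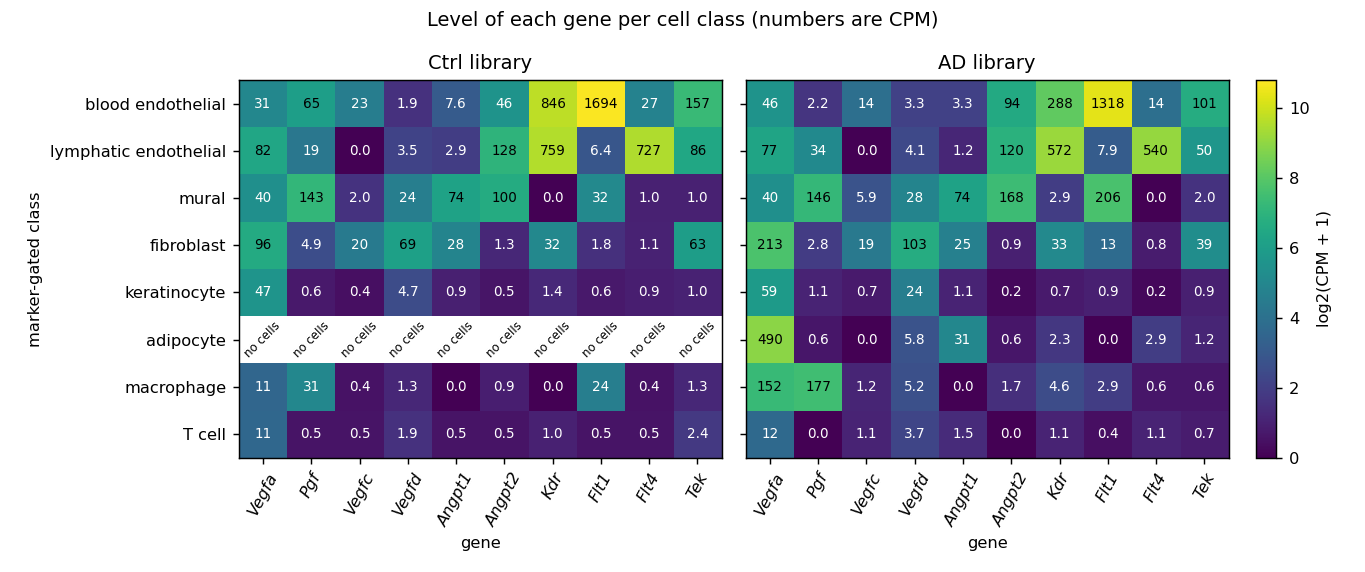
Level of the 10 genes (horizontal axis, ligands first) in 8 marker-gated classes (vertical axis) of the Ctrl and the AD library, with the CPM printed in each field and log2(CPM + 1) as colour. Flt1 was high in blood endothelium, Flt4 in lymphatic endothelium and Kdr in both. The ligands were spread over fibroblasts, mural cells, macrophages, keratinocytes, the endothelia and, in AD, adipocytes.

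The 3 VEGF receptors marked the endothelia in different ways. In GRCm38 coordinates, Flt1 (chromosome 5, 147561604 to 147726011, minus strand), the VEGF-A and PlGF receptor, was a gene of blood endothelium, with 1694 CPM in Ctrl (887 UMIs) against 1318 CPM in AD (1202 UMIs). Lymphatic endothelium held 6.41 CPM (11 UMIs) and 7.88 CPM (19 UMIs), and 17 of those 19 AD UMIs lay in 1 cell. At least 1 Flt1 UMI was found in 64 of 69 Ctrl and 77 of 81 AD blood endothelial cells, against 7 of 256 and 2 of 261 lymphatic ones. The lymphatic level was lower than the blood level by 264-fold in Ctrl and by 167-fold in AD, log2 ratios of −8.05 (−9.05 to −7.20) and −7.38 (−8.12 to −6.74).

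Flt4 (chromosome 11, 49609263 to 49652739, plus strand) showed the opposite pattern. Its level in lymphatic endothelium was 727 CPM in Ctrl (1247 UMIs, 687 to 768) against 540 CPM in AD (1301 UMIs, 511 to 570). In blood endothelium it was 26.7 CPM (14 UMIs, 14.6 to 44.9) and 14.3 CPM (13 UMIs, 7.59 to 24.4). Among the non-endothelial classes with at least 20 cells, the highest values were 8.65 CPM in erythroid cells of Ctrl and 7.00 CPM in neutrophils of AD, each of them 1 UMI. Mixed cells, which passed more than 1 gate, held 147 and 98 Flt4 UMIs. The log2 ratio of lymphatic over blood was 4.76 (4.01 to 5.64) in Ctrl and 5.24 (4.46 to 6.16) in AD.

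Kdr (chromosome 5, 75932827 to 75978458, minus strand), which carries most VEGF-A signalling, was found in both endothelia. In Ctrl its levels were 846 CPM in blood (443 UMIs, 769 to 929) and 759 CPM in lymphatic endothelium (1303 UMIs, 719 to 802), and these intervals overlapped. The AD library gave 288 CPM in blood (263 UMIs, 255 to 325) and 572 CPM in lymphatic endothelium (1378 UMIs, 542 to 603), which did not overlap. The log2 ratio of lymphatic over blood was therefore −0.16 (−0.31 to 0.00) in Ctrl and 0.99 (0.80 to 1.18) in AD. With each cell thinned to 1000 UMIs, so that every cell counted alike, it was 0.75 in Ctrl and 1.86 in AD, so the direction in Ctrl was not stable. The same ratio of Flt4 was 5.91 and 3.57 after thinning. Blood endothelium had 14 Flt4 UMIs in Ctrl and 13 in AD before thinning. The thinned Flt4 ratios rest on fewer still and have no interval, so no shift is read from them. Kdr and Flt4 were seen together in single lymphatic cells: 209 of 256 in Ctrl and 209 of 261 in AD had a UMI of both. In blood endothelium 9 of 69 and 11 of 81 cells had both.

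Among whole classes, Tek (chromosome 4, 94739289 to 94874976, plus strand) was highest in blood endothelium, with 157 CPM in Ctrl (82 UMIs, 125 to 194) against 101 CPM in AD (92 UMIs, 81.3 to 124). Lymphatic endothelium followed with 85.7 CPM (147 UMIs, 72.4 to 101) and 50.2 CPM (121 UMIs). The order blood, lymphatic, fibroblast was the same in both libraries, and the intervals of neighbours in that order did not overlap. Of 6 genes with at least 100 UMIs in both endothelia together, Flt4, Vegfa and Angpt2 were at least 2-fold higher in lymphatic endothelium in Ctrl and Flt1 was at least 2-fold lower. Over all genes counted in the same way, 11.4% were 2-fold higher and 8.04% were 2-fold lower, 19.4% together. Vegfa (141 lymphatic and 16 blood UMIs), Angpt2 (219 and 24) and Flt4 reached that limit through lymphatic endothelium, and Flt1 through blood. Lymphatic endothelium of Ctrl had 1715939 UMIs in all, against 523462 in blood, which favours genes high in lymphatic cells. Pgf (32 and 34 UMIs, log2 ratio −1.80) fell under the limit. In AD, Flt4 was higher and Flt1 and Tek were lower, beside 11.9% and 8.47% of all genes, 20.3% together. Tek was close to the 2-fold line (log2 ratio −1.01, −1.41 to −0.60).

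**Figure D2:**
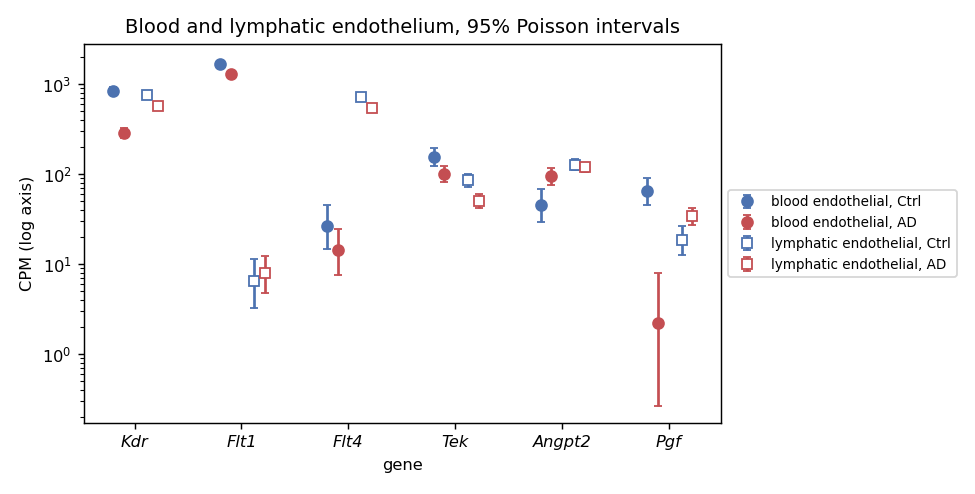
CPM on a log axis for 6 genes in blood endothelium (filled circles) and lymphatic endothelium (open squares), blue for Ctrl and red for AD, with exact 95% Poisson intervals. The symbols for Flt1 and Flt4 are far apart in opposite directions, the blood value of Kdr in AD (288 CPM) lies below the other 3, and the blood value of Pgf in AD rests on 2 UMIs.

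Keratinocytes were the background for receptors. All 4 receptors lay between 0.184 and 1.36 CPM there in both libraries, far under the endothelial levels. With each cell thinned to 1000 UMIs, Kdr was detected in 5 of 1802 Ctrl and 0 of 350 AD keratinocytes, and in 149 of 255 and 103 of 261 lymphatic endothelial cells.

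Kdr, Flt1 and Tek are receptors found in blood endothelium, and Kdr and Tek were found in lymphatic endothelium as well. Their start regions are shown to give the sequence context of these genes. They are the RefSeq stretches of 240 bases that end 10 bases before the annotated start (GRCm38.p6), written 5′ to 3′ on the strand of the gene, with GGAA and its reverse complement TTCC in capitals. GGAA is the core bound by ETS factors, a family known for its part in endothelial genes. The positions are chr5:75978466-75978705 (minus), chr5:147726022-147726261 (minus) and chr4:94739039-94739278 (plus).
Kdr: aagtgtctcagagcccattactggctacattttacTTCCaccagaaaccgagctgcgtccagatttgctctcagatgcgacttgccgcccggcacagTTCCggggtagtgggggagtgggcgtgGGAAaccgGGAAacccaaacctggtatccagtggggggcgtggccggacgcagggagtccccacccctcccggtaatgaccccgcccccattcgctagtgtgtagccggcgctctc
Flt1: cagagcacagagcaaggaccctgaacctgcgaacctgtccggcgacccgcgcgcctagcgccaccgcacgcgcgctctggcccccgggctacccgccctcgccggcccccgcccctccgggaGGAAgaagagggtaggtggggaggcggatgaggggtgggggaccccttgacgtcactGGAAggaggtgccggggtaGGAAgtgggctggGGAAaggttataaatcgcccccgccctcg
Tek: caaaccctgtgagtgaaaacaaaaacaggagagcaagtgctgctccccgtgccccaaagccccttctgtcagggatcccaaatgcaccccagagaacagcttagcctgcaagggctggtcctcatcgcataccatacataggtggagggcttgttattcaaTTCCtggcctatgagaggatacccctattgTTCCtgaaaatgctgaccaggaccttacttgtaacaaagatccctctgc
The Kdr stretch held 4 matches, 2 on each strand, the Flt1 stretch 4, all read as GGAA, and the Tek stretch 2, both read as TTCC. Matches are common, since 92.7% of 32851 promoter stretches of this length held at least 1 and 30.5% held 4 or more. Such a match is a string of letters and not a bound site. Promoter entries were found for 8 of the 10 genes, and none for Angpt1 and Angpt2.

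Between the libraries, Kdr and Angpt2 of blood endothelium differed by more than 2-fold, in opposite directions. Kdr was lower in AD than in Ctrl by 2.94-fold, a log2 ratio of −1.55 (−1.78 to −1.33). A Kdr UMI was found in 50 of 69 Ctrl and 58 of 81 AD cells, at median depths of 6123 and 10438 UMIs, so these shares are not at equal depth. The 3 highest cells held 113 of the 443 Kdr UMIs in Ctrl and 43 of the 263 in AD. Angpt2, which can antagonise TEK, was 2.06-fold higher, 45.8 CPM in Ctrl (24 UMIs) against 94.3 CPM in AD (86 UMIs), a log2 ratio of 1.04 (0.37 to 1.76). The other 2 receptors counted were lower by less than 2-fold, with log2 ratios of −0.36 (−0.49 to −0.24) for Flt1 and −0.64 (−1.08 to −0.19) for Tek. With each cell thinned to 1000 UMIs the log2 ratio of Tek was 0.23. That value rests on fewer UMIs than the 82 (Ctrl) and 92 (AD) of whole cells. It has no interval, so it cannot settle the direction of Tek. Of 4 members with at least 100 UMIs, 1 was thus 2-fold higher and 1 was 2-fold lower, where 4.58% and 5.63% of 2556 genes were, 10.2% together. The Ctrl value of Angpt2 rested on few cells, since 12 of its 24 UMIs were in 1 cell and 9 of 69 cells had any. The AD UMIs were spread over 24 of 81 cells. The ratio of Angpt2 fell under 2-fold with Leiden clusters in place of gates (0.95), with 1 marker more in every gate (0.98) and with Scrublet doublets left out (0.99).

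The subset calls of blood endothelial cells also differed between the libraries. By subset markers, 34 Ctrl and 27 AD cells were capillary, 13 and 12 arterial, and 9 and 21 venous. Cells with ties or with fewer than 2 markers of a subset were left out. The summed venous markers (Ackr1, Selp, Sele, Vwf), of which Selp and Sele encode the selectins of inflamed vessels, stood at 598 CPM in Ctrl against 6351 CPM in AD, while the capillary markers stood at 1148 and 1174 CPM. Within capillary cells, Kdr was 1373 CPM in Ctrl (394 UMIs, 1241 to 1516) against 345 CPM in AD (120 UMIs, 286 to 413). Venous cells held 334 CPM (14 UMIs, 183 to 561) and 321 CPM (74 UMIs, 252 to 403), and arterial cells 47.3 CPM (6 UMIs) and 63.2 CPM (7 UMIs). The lower Kdr of AD was thus found in capillary cells taken alone, and venous and arterial intervals overlapped between the libraries. Whether the venous counts reflect more venous cells or higher marker levels in the same cells was not tested. The part that the shift in subset calls has in the value of the whole class was not tested either. Angpt2 in capillary cells was 66.2 CPM in Ctrl (19 UMIs, 39.9 to 103) against 176 CPM in AD (61 UMIs, 134 to 225).

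Pgf in blood endothelium was 65.0 CPM in Ctrl (34 UMIs) against 2.19 CPM in AD (2 UMIs). The Ctrl UMIs were found in 7 of 69 cells, and 22 of the 34 were in 1 cell, so the value describes few cells.

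In lymphatic endothelium 3 receptors were lower in AD. AD over Ctrl gave log2 ratios of −0.41 (−0.52 to −0.30) for Kdr, −0.43 (−0.54 to −0.32) for Flt4 and −0.77 (−1.13 to −0.41) for Tek. Angpt2 was 128 CPM in Ctrl (219 UMIs, 111 to 146) against 120 CPM in AD (289 UMIs, 107 to 135), and Vegfa was 82.2 CPM (141 UMIs) and 77.2 CPM (186 UMIs). Both pairs overlapped. Pgf was 18.6 CPM (32 UMIs, 12.8 to 26.3) and 34.0 CPM (82 UMIs, 27.1 to 42.2), a log2 ratio of 0.87 that was 1.23 with thinned cells. None of 6 members was past 2-fold, where 3.13% of 5459 genes were 2-fold higher and 4.34% were 2-fold lower, 7.47% together. No Vegfc UMI was found in either library, which allows levels of up to 1.75 CPM (Ctrl) and 1.24 CPM (AD) at the worth of 3 UMIs, and of up to 2.15 and 1.53 CPM by the exact intervals used elsewhere.

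**Figure D3:**
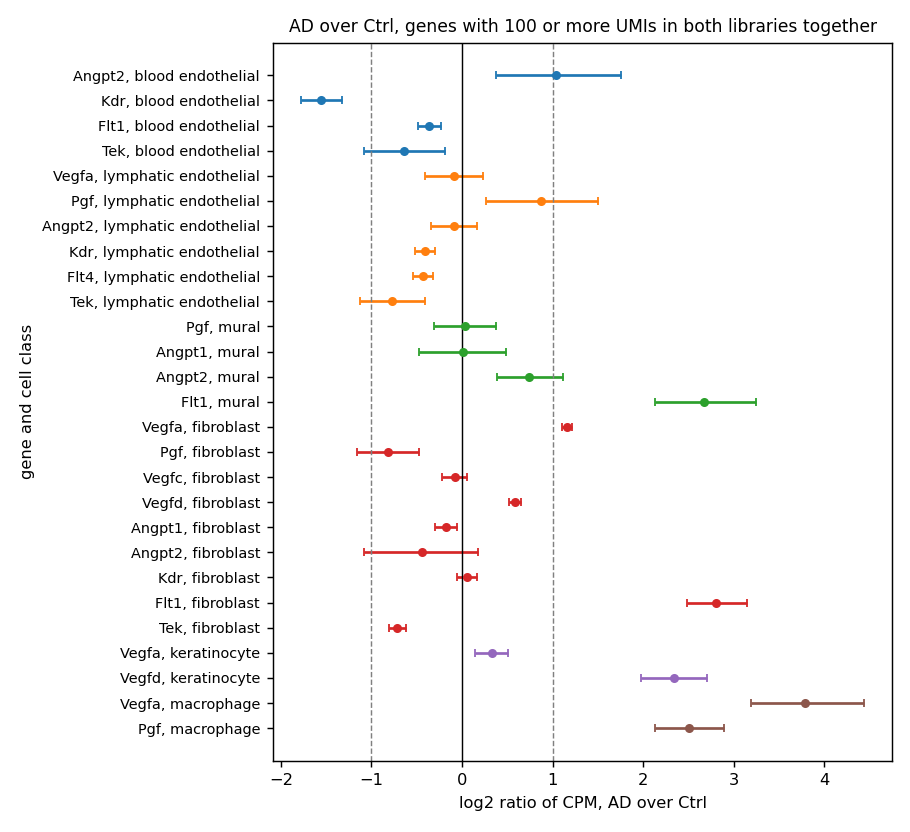
Log2 ratio of CPM, AD over Ctrl (horizontal axis), with exact 95% conditional intervals, for each gene and class with at least 100 UMIs in both libraries together, coloured by class. Dashed lines mark 2-fold, and the values past them are Angpt2 and Kdr in blood endothelium, Flt1 in mural cells, Vegfa and Flt1 in fibroblasts, Vegfd in keratinocytes, and Vegfa and Pgf in macrophages.

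Mural cells carried Pgf (chromosome 12, 85166635 to 85177790) and both angiopoietins, Angpt1 (chromosome 15, 42424723 to 42676977) and Angpt2 (chromosome 8, 18690263 to 18741562), all on the minus strand. Angpt1 overlaps Gm17473 and Angpt2 overlaps Mcph1 on the other strand, and how strand entered the counting was not given in the sources used here. Pgf was 143 CPM in Ctrl (145 UMIs, 120 to 168) against 146 CPM in AD (149 UMIs, 123 to 171). Angpt1 was 73.8 CPM (75 UMIs, 58.0 to 92.5) and 74.3 CPM (76 UMIs, 58.5 to 92.9), the first of the classes in both libraries, although in Ctrl the interval overlapped that of mast cells (46.1 CPM, 23.8 to 80.5). Both intervals of the difference included 0, with log2 ratios of 0.03 (−0.31 to 0.37) and 0.01 (−0.47 to 0.49). Angpt2 was 100 CPM (102 UMIs, 81.8 to 122) and 168 CPM (172 UMIs, 144 to 195), a log2 ratio of 0.74 (0.38 to 1.11).

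Flt1 in mural cells was 32.5 CPM in Ctrl (33 UMIs, 22.3 to 45.6) against 206 CPM in AD (211 UMIs, 179 to 236), a 6.35-fold difference and a log2 ratio of 2.67 (2.13 to 3.24). It was the 1 member of 4 past 2-fold in this class, where 5.53% of 3416 genes were 2-fold higher and 6.03% were 2-fold lower, 11.6% together. Cells with at least 1 UMI numbered 15 of 188 in the Ctrl and 49 of 126 in the AD library, or 6 of 188 and 22 of 125 cells after thinning to 1000 UMIs. The 6 endothelial markers summed to 163 CPM in Ctrl mural cells against 188 CPM in AD mural cells, with Cdh5 and Egfl7 at 0 in Ctrl and Cldn5 at 0 in AD. Their part in the Flt1 value was not tested. Kdr had 0 and 3 UMIs in mural cells and Tek had 1 and 2.

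Most UMIs of the VEGF ligands came from fibroblasts. They held 66.5% of the Vegfa UMIs of kept Ctrl cells and 71.5% in AD, 89.5% and 83.4% of Vegfc, 88.7% and 89.1% of Vegfd, and 83.9% and 77.4% of Angpt1. Fibroblasts were also the largest class, 48.9% of the Ctrl and 55.3% of the AD cells, so a large share need not be a high level. Pgf and Angpt2 were different. Fibroblasts held 33.2% of Pgf in Ctrl and 11.9% in AD, at 4.89 and 2.78 CPM, and lymphatic endothelium held the largest share of Angpt2 in both libraries (38.9% and 36.0%).

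**Figure D4:**
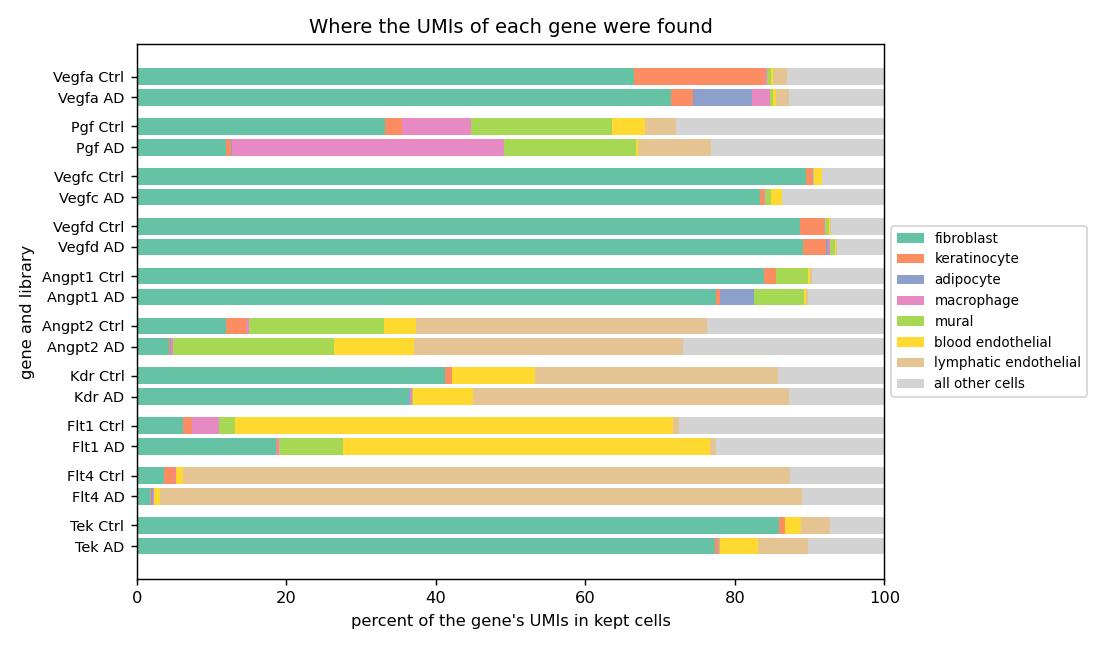
Share of each gene's UMIs in kept cells (horizontal axis, percent) that lay in each class, per gene and library. Grey covers all other cells, among them cells with markers of several classes or of none. Fibroblasts fill most of the bars for Vegfa, Vegfc, Vegfd, Angpt1 and Tek, and the macrophage part of Pgf is 9.23% in Ctrl and 36.4% in AD. Under other ways of processing, that part ranged from 0.260% to 9.31% in Ctrl and from 17.1% to 37.7% in AD.

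Vegfa (chromosome 17, 46016993 to 46032369, minus strand) was 95.7 CPM in Ctrl fibroblasts (4984 UMIs, 93.0 to 98.3) against 213 CPM in AD fibroblasts (7671 UMIs, 209 to 218), 2.23-fold higher (log2 ratio 1.16, 1.11 to 1.21). After thinning to 1000 UMIs, 483 of 5439 Ctrl and 750 of 4443 AD fibroblasts had a UMI. Vegfd (chromosome X, 164373378 to 164402650, plus strand) was also higher in AD, from 68.7 CPM (3578 UMIs) to 103 CPM (3701 UMIs), a log2 ratio of 0.58 (0.52 to 0.65). Vegfc (chromosome 8, 54077606 to 54187096, plus strand) was 20.5 CPM in Ctrl (1067 UMIs) against 19.4 CPM in AD (696 UMIs), with a log2 ratio of −0.08 (−0.22 to 0.06) that included 0, and Angpt1 had a log2 ratio of −0.17 (−0.30 to −0.05). Flt1 was low in fibroblasts but 7.00-fold higher in AD, with 1.80 CPM in Ctrl (94 UMIs, 69 cells) against 12.6 CPM in AD (454 UMIs, 243 cells), a log2 ratio of 2.81 that was 1.90 with each cell thinned to 1000 UMIs. Of 9 members with at least 100 UMIs, Vegfa and Flt1 were 2-fold higher and none was 2-fold lower, where 8.23% and 18.6% of 13153 genes were, 26.8% together. The 7 fibroblast markers, 3 of them collagen genes, summed to 54821 CPM in Ctrl fibroblasts against 13117 CPM in AD fibroblasts, and the part of this shift in the values above was not tested.

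T cells are given beside fibroblasts as a class with little Vegfa. The gene stood at 11.2 CPM in Ctrl T cells (23 UMIs) against 11.9 CPM in AD T cells (32 UMIs), and 22 of 578 and 23 of 385 cells had a UMI, at median depths of 3151 and 5925 UMIs. The thinned share of T cells was 1.04% in both libraries, under the 8.88% and 16.9% of fibroblasts. The Leiden clusters 17 and 23, which were named T cells and include cells outside the T cell gate, had 84.3 and 80.8 CPM of Vegfa in AD. Whether the T cell UMIs are free RNA or expression was not tested, so the T cell value is not a measured background.

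Fibroblasts were also a source of receptor transcripts. Tek was 63.4 CPM in Ctrl fibroblasts (3305 UMIs) against 38.7 CPM in AD fibroblasts (1390 UMIs), and because of their number fibroblasts held 85.9% and 77.4% of all Tek UMIs. Kdr was 31.8 CPM (1655 UMIs) and 33.0 CPM (1185 UMIs), 41.3% and 36.3% of all Kdr UMIs. In keratinocytes, which should lack both, Tek was 1.04 and 0.921 CPM and Kdr was 1.36 and 0.737 CPM. A Tek UMI was present in 1448 of 5574 fibroblasts of Ctrl and 1022 of 4524 of AD, at median depths of 8685.5 and 7104.5 UMIs.

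Tek, Kdr and Vegfd lay in the same fibroblast clusters. Clusters were computed with the 10 genes left out, and nearly all fibroblast clusters belonged to 1 library: clusters 0, 3, 5, 7 and 13 held most Ctrl fibroblasts, and clusters 1, 2, 4 and 6 most AD fibroblasts. Cluster 3, led by Smpd3, Pla1a, Sfrp2 and others and including Dpp4, held 1308 gated Ctrl fibroblasts. It had 195 CPM of Vegfd, 196 CPM of Tek and 83.5 CPM of Kdr. Its Tek value was above the 157 CPM (125 to 194) of Ctrl blood endothelium. Cluster 0, the largest Ctrl cluster (2230 cells, led by Ccl19 and Lum), had 23.0, 10.1 and 11.2 CPM. In AD, cluster 1 (1267 cells, led by Cxcl13 and Igfbp3) had 206 CPM of Vegfd, 69.3 CPM of Tek and 50.4 CPM of Kdr, and cluster 6 (716 cells, with Ptx3, Ccl2 and Il6 among its leading genes) had 170, 60.7 and 69.7 CPM. Over 12 profiles of fibroblast clusters by library, Pearson's r on log2(CPM + 10) was 0.88 for Vegfd with Tek, 0.87 for Kdr with Tek and 0.79 for Vegfd with Kdr, given as a description of profiles that share 2 libraries.

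Vegfc was highest elsewhere. It reached 87.8 CPM in Ctrl (40 UMIs, 77 cells) against 82.8 CPM in AD (49 UMIs, 66 cells) in cluster 28, led by Fmod, Coch and Aspn, with Tnmd, a tendon gene, among its leading genes. Its range over the other fibroblast clusters with at least 60 gated cells was 8.21 to 34.4 CPM. This cluster was shared by the libraries, and its Vegfa was 213 CPM in Ctrl (173 to 260) against 225 CPM in AD (188 to 266). Angpt1 was highest in cluster 13 of Ctrl, at 74.8 CPM (322 UMIs), a level near that of mural cells. It was also 44.3 CPM in cluster 3 of Ctrl and, among the AD clusters 1, 2, 4 and 6, highest in cluster 1 (29.8 CPM). Over the same 12 profiles Pearson's r of Angpt1 was 0.74 with Tek, 0.55 with Kdr and 0.44 with Vegfd, and that of Vegfc with Tek was −0.68. Vegfa was 80.9 to 114 CPM in the Ctrl clusters 0, 3, 5, 7 and 13 and 154 to 267 CPM in the AD clusters 1, 2, 4 and 6. Cluster and library cannot be told apart in these clusters, and in the shared cluster 28 the Vegfa intervals of the libraries overlapped.

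**Figure D5:**
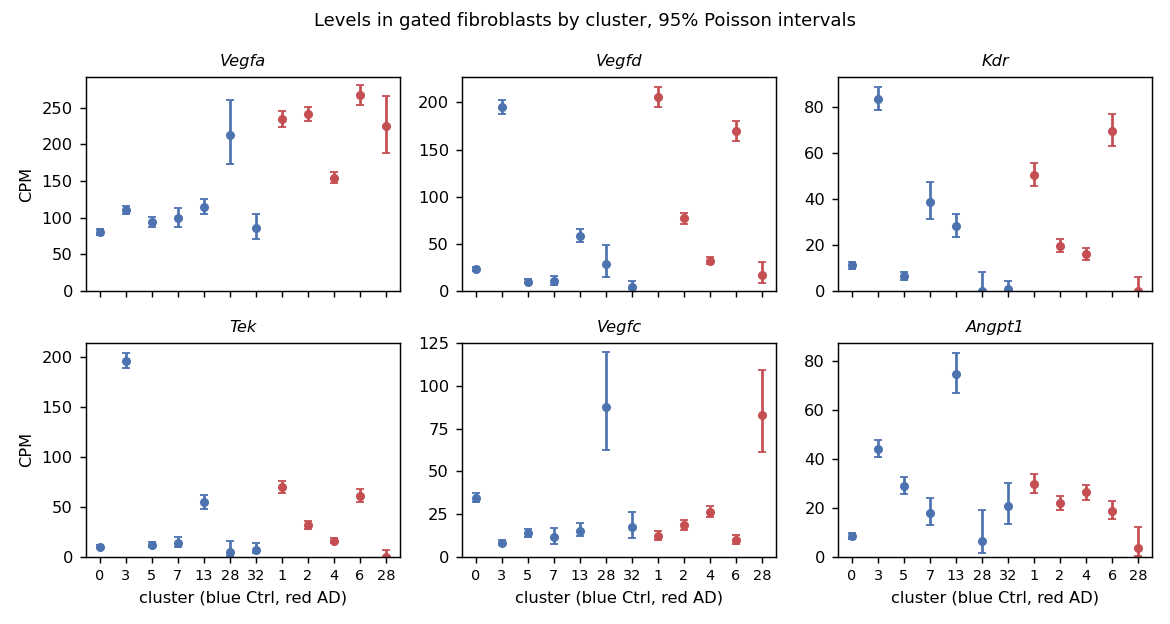
CPM of 6 genes in gated fibroblasts of each fibroblast cluster with at least 60 cells (horizontal axis, cluster number), blue for Ctrl and red for AD, with exact 95% Poisson intervals. Vegfd, Kdr and Tek peak together in cluster 3 of Ctrl, and are highest in clusters 1 and 6 among those of AD. Vegfc peaks in cluster 28 in both libraries.

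In macrophages, Vegfa and Pgf were both low in Ctrl and high in AD. Vegfa was 11.0 CPM in Ctrl (25 UMIs, 7.12 to 16.2), close to the T cell level, against 152 CPM in AD (263 UMIs, 134 to 171), a log2 ratio of 3.79 (3.19 to 4.44). Pgf was 31.2 CPM (71 UMIs, 24.4 to 39.4) and 177 CPM (307 UMIs, 158 to 198), a log2 ratio of 2.50 (2.13 to 2.90). Both members counted were past 2-fold, where 5.01% of 5146 genes were 2-fold higher and 6.72% were 2-fold lower, 11.7% together. Both reached the limit of 100 UMIs only with their AD counts, so this count carries no weight of its own. Flt1, which was lower in AD (54 Ctrl and 5 AD UMIs, log2 ratio −3.04), fell under that limit. The UMIs were unevenly spread. Pgf was detected in 18 of 466 Ctrl and 36 of 195 AD macrophages, 3 Ctrl cells held 52 of the 71 UMIs and 3 AD cells held 100 of the 307. Vegfa was detected in 15 and 49 cells, and the thinned shares were 1 of 452 and 14 of 185.

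The macrophage gate spanned 2 clusters. Cluster 11, led by Pf4, C1qa and C1qb, held 356 Ctrl and 168 AD cells of the gate. Cluster 14, led by MHC class II genes with Cd207 and Mgl2 among its leading genes and named dendritic-like by its markers, held 110 and 27. In cluster 11, Vegfa was 6.71 CPM in Ctrl (10 UMIs) against 132 CPM in AD (178 UMIs), and Pgf was 1.34 CPM (2 UMIs) and 120 CPM (162 UMIs). In cluster 14, Vegfa was 19.2 CPM (15 UMIs) and 221 CPM (85 UMIs), and Pgf was 88.3 CPM (69 UMIs) and 377 CPM (145 UMIs). The higher AD levels were therefore present in both. Flt1 in Ctrl macrophages (54 UMIs, 23.8 CPM) lay wholly in cluster 14, at 69.1 CPM, and was 7.81 CPM there in AD (3 UMIs). With Leiden clusters in place of gates, the log2 ratio of Flt1 in macrophages had the opposite sign (1.24 against −3.04), and that of Pgf was 6.49 in place of 2.50.

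Keratinocytes made Vegfa at 46.9 CPM in Ctrl (1308 UMIs) against 58.9 CPM in AD (320 UMIs), a log2 ratio of 0.33 (0.15 to 0.51) that ranged from 0.09 to 0.94 over the alternatives. They held 17.5% of the Vegfa UMIs of Ctrl. Over all cells of a cluster, Vegfa was 53.4 CPM in Ctrl against 78.7 CPM in AD in cluster 12. It was 63.1 and 73.3 CPM in cluster 16 (40 AD cells), and 61.0 and 48.2 CPM in cluster 15. Clusters 18 and 20, at 26.3 and 25.8 CPM in Ctrl, held 468 and 424 Ctrl cells against 0 and 3 AD cells. The part of these cluster shares in the Vegfa ratio was not tested. Vegfd, the ligand of FLT4, was 4.70 CPM in Ctrl (131 UMIs) against 23.8 CPM in AD (129 UMIs), a log2 ratio of 2.34 (1.98 to 2.70, and 1.74 with Leiden clusters), and was the 1 of 2 members past 2-fold, where 5.92% of 11322 genes were 2-fold higher and 14.0% were 2-fold lower, 19.9% together. The clusters of this class did not share the difference. In cluster 12, led by Krt15 and Sox9, Vegfd was 1.75 CPM in Ctrl (7 UMIs, 369 cells) against 41.1 CPM in AD (80 UMIs, 191 cells). In cluster 15, led by Krt14 and Fcgbp, it was 14.3 CPM (71 UMIs, 358 cells) and 15.2 CPM (47 UMIs, 139 cells). Krt5 and Krt15 were among the leading genes of both clusters. Cluster 12 was 20.3% of gated keratinocytes in Ctrl and 52.3% in AD. The summed fibroblast markers were at 0.983% of their fibroblast level in AD keratinocytes, and Vegfd was at 23.1% of its fibroblast level. Cells that also passed the fibroblast gate were left out as mixed, so the gates themselves limit these markers. The part of fibroblast RNA in the keratinocyte Vegfd value was not tested. The part of the changed cluster shares in the class value was not tested. After thinning, 7 of 1802 Ctrl and 5 of 350 AD keratinocytes had a Vegfd UMI.

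Other classes held fewer UMIs. Adipocytes were gated in AD alone (86 cells) and had the highest Vegfa of any class, 490 CPM (838 UMIs, 457 to 524), with a UMI in 83 of 86 cells at a median depth of 19242 UMIs. They also had Angpt1 at 31.0 CPM (53 UMIs). Mast cells had Vegfa at 76.8 CPM in Ctrl (20 UMIs, 46.9 to 119) against 275 CPM in AD (35 UMIs, 191 to 382), and 14 of the 35 UMIs were in 1 cell. Schwann cells had Angpt2 at 20.3 CPM (9.26 to 38.5) and 50.8 CPM (27.0 to 86.8), intervals that overlapped.

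The other genes of these pathways were taken from a list of 28. In blood endothelium, 1 of the 10 listed genes with at least 100 UMIs was 2-fold higher in AD and 1 was lower, beside the 4.58% and 5.63% of all genes. Tie1, the orphan partner of TEK, was 147 CPM in Ctrl against 333 CPM in AD (log2 ratio 1.18, 0.81 to 1.56). Nrp1, a co-receptor that strengthens VEGF-A binding to KDR, was 665 CPM and 187 CPM (log2 ratio −1.83, −2.10 to −1.56). Nrp1 was nearly restricted to blood endothelium among the endothelia, with 1 UMI in Ctrl and 7 UMIs in AD lymphatic cells. In lymphatic endothelium 2 of 16 were 2-fold higher and 3 were lower, where 3.13% and 4.34% of all genes were. The higher ones were the hypoxia genes Hif1a (98.5 and 201 CPM) and Bnip3 (11.7 and 42.3 CPM). Lower there were Ptprb, the phosphatase that restrains TEK (295 and 85.1 CPM), Angptl2 and Nos3.

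Fibroblasts had 4 of 19 listed genes 2-fold higher and 2 lower, where 8.23% and 18.6% of all genes were, 26.8% together, so the share past 2-fold was near that of all genes. Adm, which encodes the vessel-widening and lymphatic factor adrenomedullin, was 149 CPM in Ctrl against 562 CPM in AD (log2 ratio 1.92, 1.88 to 1.96). Epas1 (6.56 and 42.4 CPM), Bnip3 (27.2 and 116 CPM) and Slc2a1 (13.0 and 48.5 CPM), all hypoxia genes of the list, were higher, whereas Egln3, another of them, was 2.84 and 0.723 CPM. Among 8 hypoxia genes counted in fibroblasts, 3 were higher, 1 was lower and the median log2 ratio was 0.32, beside −0.15 over all genes. Angpt4, a further TEK ligand, was 6.85 CPM in Ctrl (357 UMIs) against 0.834 CPM in AD (30 UMIs). Keratinocytes had 5 of 16 higher (Angptl4, Adm, Cxcr4, Slc2a1 and Car9) and Nrp2 lower, beside 5.92% and 14.0% of all genes. Macrophages had 3 of 8 higher (Cxcr4, Hif1a and Slc2a1) and Nrp1 lower, beside 5.01% and 6.72% of all genes. Mural cells had 2 of 7 higher (Angptl2 and Angptl4) and none lower, beside 5.53% and 6.03%.

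The genes whose levels followed each member most closely were sought over 27 profiles of class and library, by Pearson's r on log2(CPM + 10) among 8709 genes. Kdr was closest to Unc45b (r = 0.957), Cdh5 (0.953), itself a gating marker, and Clic5 (0.951). Flt4 followed Wipf3 (0.954), Duox2 and Dtx1, and Flt1 followed Asb4 (0.924), Htr2a and C1qtnf9. Tek was also closest to Unc45b (0.945), then Ace and Stc1. Angpt2 followed Hey1 (0.930), a gene of the arterial marker list, Syn3 and Nr2f2. Angpt1 followed Kcne4 (0.866), Pdgfrb (0.839), the receptor of pericytes and fibroblasts, and Epb41l1. Vegfd followed Fmod (0.877), Has2 (0.859) and Adamts2, and Pgf followed Adap2 (0.838), Slc8a1 and Sh3bgrl. Values were lower for Vegfa, with Zfp36 (0.672), Csf1 and Coq8b, and for Vegfc, with Tgfbr1 (0.686), Tmod1 and Cd34. The profiles share 2 libraries and differ in depth, so these values are a description.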

How the data were processed

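Single-cell suspensions of dorsal skin were run by the authors on 10x 3′ v3.1 chemistry, 1 Ctrl and 1 AD library. The deposited values are raw UMI counts per gene and barcode, without normalization. The versions of Cell Ranger disagree between sources: 5.0.0 in the matrix header, 6.0.0 in the design text and 3.1.0 in the submitters' processing notes, each with mm10. Of 33904 gene identifiers, 1429 are not in GENCODE M21 (GRCm38), from which the gene positions are taken, so the annotation of the matrices is another version.

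Cells were kept by the filter of the methods, and a class needed at least 3 markers with a UMI and marker UMIs of at least 0.05% of the cell (0.2% for mural cells, 0.4% for fibroblasts, 0.1% for keratinocytes, 1% for erythroid cells). Lymphatic cells had at least 3 lymphatic markers, and blood cells at least 2 blood and at most 1 lymphatic marker. The limits were set on marker tables. Counts of genes past 2-fold took genes with at least 100 UMIs in both arms of a comparison together. A gene that is high in 1 arm can reach that limit through this arm alone, so these counts are a description. Leiden clusters (scanpy 1.11.5, resolution 1, 2000 variable genes) left the 10 genes out. The calculation of ratios was checked on counts drawn from a Poisson model, which the intervals also assume. With 200 of 13153 genes changed in fibroblasts, 95.2% of the intervals held the true value. This checks the calculation only, since real UMIs of 1 cell are not independent. All 10 genes were to be named, the 28 listed pathway genes given as counts with values for a few, and the 3 closest genes named per member. The genes, lists and gates were chosen with earlier results of these data known. The total UMIs were 125184653 in Ctrl and 76106062 in AD, which limits rare classes most. Scrublet marked 395 of 11399 Ctrl cells and 0 of 8179 AD cells as doublets, so it did not work in AD, and doublets were not removed in the reported values.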

Additional observations from a re-analysis of the deposited data

Results flagged for a closer look

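With 1 library per condition, the differences in this paragraph were not tested. Vegfa, Pgf and Flt1 moved past 2-fold in opposite directions in different classes between Ctrl and AD, each with a counting interval that did not include 0. Vegfa had log2 ratios of AD over Ctrl of 1.16 in fibroblasts, 3.79 in macrophages, 2.55 in dendritic cells and 1.84 in mast cells, and of −1.94 in Schwann cells, where the libraries had 20 and 3 UMIs. Pgf had −4.89 in blood endothelium, 2.50 in macrophages and 2.76 in dendritic cells. The dendritic values rest on few cells: of 34 AD cells, 6 had a Pgf UMI and 20 of the 34 UMIs were in 1 of them, against 4 UMIs in Ctrl, and 36 of the 44 Vegfa UMIs were in 3 cells. With 1 marker more in every gate the Pgf ratio there was −1.49. Flt1 had 2.67 in mural cells, 2.81 in fibroblasts (1.90 with each cell thinned to 1000 UMIs) and −3.04 in macrophages (1.24 with Leiden clusters). Pgf also changed sides between the endothelia, with a log2 ratio of lymphatic over blood of −1.80 in Ctrl and 3.96 in AD, where blood endothelium had 34 and 2 UMIs, 22 of the 34 in 1 cell.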

How the results depend on the processing

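The log2 ratios with at least 30 UMIs, 55 in all, were recomputed under 9 alternatives, 8 of them planned. Of the 22 that were past 2-fold, 22 stayed past it in the same direction with all deposited barcodes, with at least 500 genes and 1000 UMIs, with CPM without mitochondrial, ribosomal protein and haemoglobin genes and, chosen after seeing the data, without the top 5% of Scrublet scores. With Leiden clusters 19 did, with 1 marker more in every gate 20, with Scrublet doublets left out 21, with the mean over cells 21, and with cells thinned to 1000 UMIs 15 of the 16 that could be computed. The exceptions included 2 reversals: Flt1 in macrophages was 1.24 with Leiden clusters, and Pgf in dendritic cells was −1.49 with 1 marker more. Kdr in blood endothelium ranged from −1.78 to −1.20 over the alternatives, Flt1 in mural cells from 2.23 to 2.99, Vegfa in fibroblasts from 1.10 to 1.18 and in macrophages from 3.60 to 4.38, and Vegfd in keratinocytes from 1.74 to 2.39. Angpt2 in blood endothelium, from 0.95 to 1.27, crossed the 2-fold line, and Pgf in macrophages ranged up to 6.49 with Leiden clusters. Tek in blood endothelium, from −0.82 to 0.23, crossed 0 when thinned. Thinned ratios rest on fewer UMIs and have no intervals. The number of members past 2-fold between AD and Ctrl in blood endothelium, 2 as reported, was 1 with Leiden clusters, with 1 marker more and with Scrublet doublets left out. In keratinocytes it was 2 with Leiden clusters. With every cell thinned to 1000 UMIs, fewer members reached 100 UMIs, and the counts were 0 in blood endothelium, 1 in fibroblasts, 0 in keratinocytes, and 2 for lymphatic against blood in Ctrl. No paired analysis was possible because each condition has 1 library.

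Blood endothelium holds under 100 cells per library, so its values rest on few cells, and intervals do not cover differences between mice. Class limits set how cells near them are counted, and unassigned and mixed cells hold part of each gene's UMIs.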
